A study of Mus musculus with 10 samples.

Results

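The genes described here encode sodium, calcium, HCN, TRP, chloride, anoctamin, Piezo and acid-sensing channels with their auxiliary subunits. They were chosen by name, as the protein-coding rows whose symbol begins with Scn and a digit, Cacn, Hcn and a digit, Trpc, Trpm or Trpv and a digit, Nalcn, Clcn, Ano and a digit, Piezo or Asic. The rule found 76 of 18464 genes of the deposited table. One of them, Trpc4ap, is an adaptor protein gene and no channel. RNA was measured in naive mice of the strain Aldh1l1-NuTRAP, whose tagged ribosomes are made in cells that use the Aldh1l1 promoter, in brain mostly astrocytes. Both groups come from ventral midbrain (SNpc/VTA) of this strain: 5 input libraries hold RNA of all its cell types, and 5 astrocyte fraction libraries hold RNA pulled down with the tagged ribosomes. Every number in the titles (88, 92, 976, 981 and 982) occurs once per group. The labels used here give no age or sex and do not say whether a number is 1 animal, so p-values reflect only how these libraries spread, which may be technical.

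As background, these proteins let ions cross membranes passively, except for the endosomal CLC proteins, which exchange chloride for protons. Voltage-gated sodium channels carry the upstroke of the action potential, voltage-gated calcium channels couple spikes to transmitter release and gene regulation, and HCN channels carry a current that opens on hyperpolarisation. In the ventral midbrain the L-type, HCN and leak channels are known for their part in the pacemaking of dopamine neurons. Astrocytes do not fire action potentials, and their calcium signals have been tied to stores and to TRP and other cation channels.

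Each value is for a whole gene, summed over its transcripts. To show what lies in front of the start sites, the 250 bases before the start of 3 members are given from RefSeq (GRCm38.p6), 5′ to 3′ on the strand of the gene. Trpm3 had the largest gain of all members, Clcn4 was higher as well, and Cacna1b was among those most reduced. Capitals mark CCAAT (read on both strands) in Trpm3 and Cacna1b, TGACGTCA in Clcn4 and CAGCTG in Cacna1b.
Trpm3, chr19:22138796-22139045, plus strand: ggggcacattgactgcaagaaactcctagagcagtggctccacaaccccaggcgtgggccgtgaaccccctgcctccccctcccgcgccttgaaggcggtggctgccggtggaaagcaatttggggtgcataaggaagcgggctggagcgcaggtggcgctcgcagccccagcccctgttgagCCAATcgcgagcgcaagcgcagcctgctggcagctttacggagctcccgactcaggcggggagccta
Clcn4, chr7:7299558-7299807, minus strand: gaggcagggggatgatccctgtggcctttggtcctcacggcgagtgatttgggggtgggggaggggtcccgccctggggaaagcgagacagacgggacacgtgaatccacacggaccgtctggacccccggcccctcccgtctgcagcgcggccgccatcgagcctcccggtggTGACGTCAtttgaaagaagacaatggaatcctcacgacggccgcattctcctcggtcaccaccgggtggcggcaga
Cacna1b, chr2:24763153-24763402, minus strand: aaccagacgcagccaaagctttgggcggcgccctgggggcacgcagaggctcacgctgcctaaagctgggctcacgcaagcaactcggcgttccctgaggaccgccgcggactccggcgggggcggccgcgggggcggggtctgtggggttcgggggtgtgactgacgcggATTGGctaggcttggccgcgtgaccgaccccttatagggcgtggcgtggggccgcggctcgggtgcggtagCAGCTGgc
Trpm3 and Clcn4 each have 2 starts in that table and the first is shown. The Clcn4 bases lie inside the deposited span of the gene (7282309 to 7300851), so the start they precede is within the gene as measured. Gene-level counts do not tell the starts apart. RefSeq windows from 250 bases before to 50 after a start were had for 60 of the 76 members, 82 windows in all. Among these, CCAAT was in 19.5% of windows against 37.4% of all 32851 windows, CAGCTG in 26.8% against 16.3%, GGGCGG in 41.5% against 35.7%, and TATAAA in 12.2% against 13.6%. The palindrome TGACGTCA was in 2 member windows, those of Clcn3 and Clcn4, and in 1.79% of all windows. The full palindrome of NFI factors and the REST element, each searched as 1 exact pattern, were in 0 member windows and in 0.0365% of all windows each. All 7 motifs were searched on both strands after the fold changes were known, and a match is a description of letters only.

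Levels are in CPM, read counts relative to the library's total after scaling with edgeR's TMM factors. A log2 fold change is astrocyte fraction minus input with its standard error over libraries, and a call means that edgeR's quasi-likelihood test over 17672 genes gave a Benjamini-Hochberg adjusted p below 0.05. Every adjusted p printed here is from that test, or from the same test in a named alternative. Libraries held 21812193 to 30878894 expected counts, except the astrocyte fraction 92 with 3845554, where 3 counts equal 0.880 CPM against 0.0912 to 0.136 CPM elsewhere. The fraction met its label: all 12 astrocyte markers were higher, with their sum at 3389 to 3689 CPM in the input libraries, against 20930 to 31491 CPM in those of the fraction. All 12 pan-neuronal markers were lower, with log2 fold changes from -2.61 to -2.02. All listed markers of dopamine neurons, microglia, mature oligodendrocytes and their precursors were lower too. Endothelial markers fell less, with 4 of 7 lower, 3 not called and a median log2 fold change of -0.44. Of 6 mural markers, 5 were lower and 1, Pdgfrb, was higher (1.35 ± 0.17). Choroid plexus markers stood apart by number. The sum of 7 of them was 4972 and 1163 CPM in the inputs 976 and 982 and 19734 and 4089 CPM in their fractions, against 131 to 294 CPM in the other 6 libraries. For differences between numbers, fewer cells of a type and less RNA per cell cannot be told apart in bulk RNA. A fold change between the groups sets RNA pulled down with ribosomes against RNA of all cell types. Cell type, ribosome binding and RNA carried over without the tag cannot be told apart in it.

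Most of the 76 genes were lower in the astrocyte fraction. Of these, 62 were lower, 6 higher and 8 not called, where 37.5% of all tested genes were lower, 33.1% higher and 70.6% called in either direction. The members' median log2 fold change was -2.06, which leaves 24.05% of the input level, against -0.06 for all tested genes. With libraries scaled to their total counts these medians were -2.34 and -0.34, and higher genes made up 34.04% of all called genes in place of 46.9%. Of the 62 lower members, 53 were at least 2-fold and 41 at least 4-fold lower. All 9 calcium channel pores, all 7 sodium channel pores, all 4 HCN genes and all 7 TRPC genes were among the 62 lower members, though not all of them at 2-fold or more. The 6 higher members were Trpm3, Ano6, Clcn3, Clcn4, Cacng8 and Ano10. Every fraction library was above every input library in these 6, and below every input library in 54 members (27.2% and 31.1% of all tested genes). The pan-neuronal marker range held 26 members, 13 lay below it and 37 above it. Trpm3 alone lay within the astrocyte marker range of 2.65 to 3.40. In 11 members some fraction libraries had under 5 counts while all inputs had 5 or more: Cacna1s, Trpc2, Trpc4, Trpc5, Trpc6, Trpc7, Trpv3, Clcn1, Ano2, Ano7 and Piezo2. Scn7a was close to this limit, with 5 counts in the fraction 982. Genes this low in the fraction can pass the filter on low values through the input alone. Cacna1s, Trpc4, Clcn1, Ano2, Ano7 and Piezo2 had 0 counts in the fraction 92, so the fractions alone could not carry them past it. They were tested through the group where they are high, and their lower calls, counted above, have that limit. The other low genes were not checked gene by gene. Another 18 genes of these families are not analysed here.

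**Figure D1:**
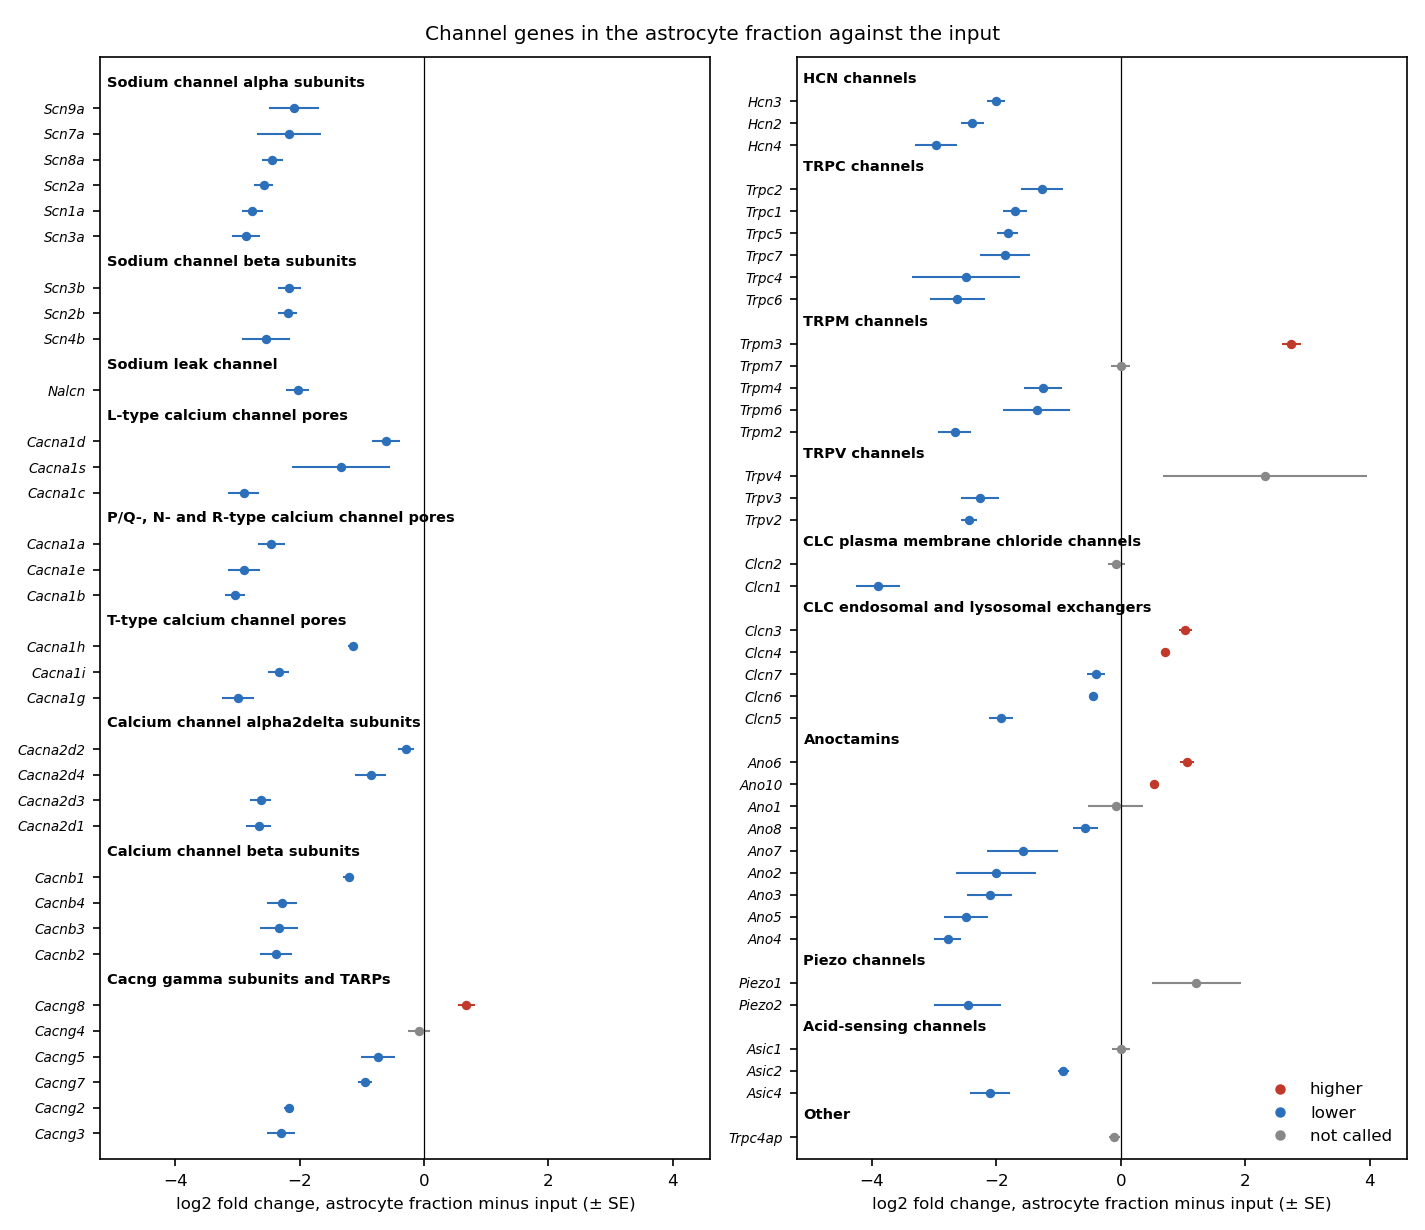
Log2 fold change of astrocyte fraction minus input (horizontal axis) for 72 of the 76 genes, grouped by family; points are edgeR estimates, bars standard errors over 5 libraries a group, and colours the call at an adjusted p under 0.05. The sodium channel pores shown lie between -2.87 and -2.08, whereas Trpm3 stands at 2.74.

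Trpm3 was the member with the largest gain. It encodes a cation channel opened by heat and by the steroid pregnenolone sulfate (chromosome 19, 22139119 to 22989884, mm10). In the inputs 88, 92, 976, 981 and 982, the order used for all values from here on, Trpm3 stood at 55.2, 65.02, 73.2, 59.3 and 41.1 CPM, and in the fractions at 375, 432, 356, 450.3 and 354 CPM. The lowest fraction library was thus far above the highest input. The log2 fold change was 2.74 ± 0.16, or 6.68-fold (adjusted p = 2.87e-09), with the fraction higher in all 5 numbers. Without the numbers 976 and 982 it was 2.91. The input 976, which had the most choroid plexus RNA of the inputs, was the highest input for Trpm3, and the fraction 976 was below the fractions 88, 92 and 981. Number 982, next in choroid plexus RNA, had the lowest Trpm3 level of both groups. Whether choroid plexus RNA had a part in the Trpm3 values was not tested.

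No other TRPM gene was called higher. Trpm2, a channel gated by ADP-ribose and oxidative stress (chromosome 10, 77907722 to 77970563), had 61.98, 84.3, 64.2, 63.8 and 73.6 CPM in the inputs, against 7.96, 19.4, 10.2, 7.14 and 12.2 CPM in the fractions. Every fraction lay below every input, and the log2 fold change was -2.67 ± 0.27 (adjusted p = 3.90e-07). Trpm4, a monovalent cation channel opened by calcium, was lower at -1.24. Trpm7, a channel with a kinase domain that carries magnesium, was at -0.0038 ± 0.15 on the log2 scale (adjusted p = 0.971) and was not called. Its close relative Trpm6 (chromosome 19, 18749983 to 18892510) had 2.86, 10.1, 5.64, 2.12 and 5.63 CPM in the inputs, against 1.102, 4.695, 1.08, 1.71 and 2.31 CPM in the fractions. The 92 libraries were the highest of both groups, and the groups overlapped. Trpm6 was lower at -1.35 ± 0.54 (adjusted p = 0.0168), a call lost without the input 92 (adjusted p = 0.0536), without number 976 (0.0773) or 982 (0.0515), and without both (0.181).

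All 7 TRPC genes, which encode channels downstream of phospholipase C, were lower, with log2 fold changes from -2.63 to -1.27. Trpc6, opened by diacylglycerol (chromosome 9, 8544142 to 8680741), had the largest loss, from 4.38, 4.68, 2.47, 8.48 and 2.09 CPM to 0.530, 0.587, 0.479, 1.24 and 0.362 CPM (-2.63 ± 0.44, adjusted p = 1.31e-04). Number 981 was the highest of both groups for Trpc6, and the groups did not overlap. Trpc4 (-2.49), Trpc7 (-1.85), Trpc5 (-1.82) and Trpc1 (-1.70) were lower too. Trpc2, a pheromone-sensing channel gene of rodents (chromosome 7, 102083116 to 102096396), stood at 1.27, 1.09, 1.14, 0.416 and 0.744 CPM in the inputs, against 0.612, 0.293, 0.199, 0.299 and 0.271 CPM in the fractions. Those groups overlapped, and its log2 change of -1.27 ± 0.34 (adjusted p = 0.00611) was not called without number 976 (0.0517) or without 976 and 982 (0.148). All exon bases of Trpc2 are shared with another gene model on its strand, so its count is uncertain. The adaptor gene Trpc4ap (chromosome 2, 155634271 to 155692384) had 170.1, 174, 177, 164 and 172 CPM in the inputs, against 162, 124, 159, 176 and 173 CPM in the fractions. Its groups overlapped, with a log2 change of -0.10 ± 0.09 (adjusted p = 0.303) that became -0.39 and was called lower (adjusted p = 0.0017) under total-count scaling, and -0.20 and called (0.0353) among genes of at least 5 CPM.

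Of the 3 TRPV genes, Trpv2 and Trpv3 were lower and Trpv4 was not called. Trpv2, a cation channel gene of the vanilloid family (chromosome 11, 62574486 to 62600515), stood at 24.8, 25.02, 22.6, 30.7 and 22.02 CPM in the inputs, against 5.47, 5.28, 4.23, 4.49 and 3.75 CPM in the fractions, a clear separation with a log2 change of -2.43 ± 0.13 (adjusted p = 6.16e-09). The warmth-sensing Trpv3 was lower at -2.26. Trpv4, an osmosensitive and mechanosensitive channel gene (chromosome 5, 114622152 to 114658421), had 1.34, 0.973, 23.4, 1.46 and 3.68 CPM in the inputs, against 0.734, 1.47, 129, 1.15 and 22.7 CPM in the fractions. Nearly all of its signal came from numbers 976 and 982, in which the fraction was the higher library. The log2 fold change was 2.31 ± 1.64 (adjusted p = 0.209) over 5 numbers and -0.18 (adjusted p = 0.714) without 976 and 982. Leaving out the input 976 alone gave 4.0 (adjusted p = 0.0650) and leaving out the fraction 976 alone gave 0.18 (adjusted p = 0.877). Choroid plexus RNA moved with these values: Ttr, the transthyretin gene, stood at 1.398, 0.334, 2965, 2.703 and 604 CPM in the inputs, against 2.77, 2.93, 11036, 11.5 and 2312 CPM in the fractions. Enpp2, another gene listed for that tissue, was at 255, 239, 1682, 244 and 482 CPM in the inputs. Its fractions had 69.2, 29.1, 7054, 47.6 and 1430.3 CPM. In the numbers 88, 92 and 981 Enpp2 was thus higher in the input, unlike Ttr, and it made up most of the marker sum of those inputs. None of the 7 measured markers was at 0 in any library, and their part in the Trpv4 values was not tested.

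Piezo1, a channel opened by membrane stretch (chromosome 8, 122481698 to 122551329), followed the same numbers. It stood at 3.85, 3.71, 10.4, 3.12 and 4.74 CPM in the inputs, against 3.35, 4.11, 36.2, 4.15 and 12.3 CPM in the fractions, so that the libraries 976 and then 982 were the highest of both groups. Its log2 change of 1.21 ± 0.71 was not called (adjusted p = 0.134), became 0.74 and called (adjusted p = 0.0268) with the title number as a block, and was 0.20 (adjusted p = 0.500) without 976 and 982. It was 1.63 without the input 976 and 0.30 without the fraction 976, not called in either. For number 976 the sum of 7 endothelial markers was the lowest of each group (input 104 CPM, fraction 69.5 CPM). For number 982 this sum was 118 CPM (input) and 102 CPM (fraction), the latter being the highest fraction. Whether endothelial or choroid plexus RNA had a part in the Piezo1 values was not tested. A gene on the opposite strand shares 24.6% of the exon bases of Piezo1. Piezo2, the channel of touch and proprioception (chromosome 18, 63010213 to 63387183), fell from 2.64, 0.942, 1.44, 2.83 and 1.84 CPM to 0.286, 0, 0.479, 0.214 and 0.226 CPM, with 7, 0, 12, 5 and 5 counts in the fractions. The log2 fold change was -2.46 ± 0.54 (adjusted p = 7.81e-05).

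**Figure D2:**
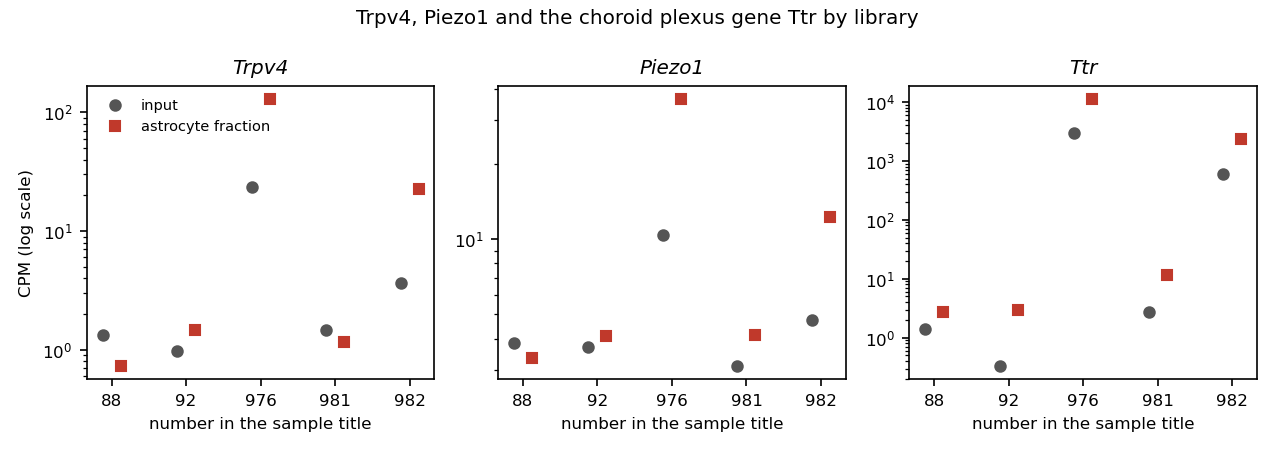
CPM on log axes of Trpv4, Piezo1 and Ttr in each library, by the number in the sample title; circles are inputs and squares astrocyte fractions. Trpv4 reached 23.4 and 129 CPM in input and fraction 976 and stayed at or below 1.47 CPM in the libraries 88, 92 and 981.

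Chloride transport genes split by family member. Clcn3 and Clcn4, whose proteins are chloride-proton exchangers of endosomes that can pair with each other, were higher. Clcn3 (chromosome 8, 60910389 to 60983300) stood at 176, 193, 169, 192 and 168 CPM in the inputs, against 378, 406, 293, 422 and 344 CPM in the fractions. Its lowest fraction, 976, was still above all inputs, and the log2 fold change was 1.04 ± 0.10 (adjusted p = 7.20e-07). Clcn4 (chromosome 7, 7282309 to 7300851), which falls outside the rule for full values and was added after its values were seen, had 169, 193, 165, 179 and 191 CPM in the inputs, against 296, 299, 263, 304 and 299 CPM in the fractions. That is a log2 change of 0.70 ± 0.06 (adjusted p = 1.10e-06) with no overlap, and an opposite-strand gene shares 11.5% of its exon bases. By contrast the third endosomal exchanger Clcn5, known from the kidney disorder Dent disease (chromosome X, 7153810 to 7319358), had 36.8, 33.2, 30.9, 41.1 and 30.1 CPM in the inputs, against 7.34, 5.87, 11.6, 10.1 and 8.77 CPM in the fractions (-1.92 ± 0.19, adjusted p = 2.38e-07).

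Clcn6, a late endosomal exchanger with the highest input level per exon length of its list (chromosome 4, 148004259 to 148038821), was modestly lower. Its values were 165, 165, 155, 185 and 156 CPM in the inputs, against 122, 121, 106, 131 and 128 CPM in the fractions. They did not overlap, and the log2 fold change was -0.44 ± 0.07 (adjusted p = 1.91e-04). The lysosomal Clcn7 was lower at -0.40, while Ostm1, its obligate partner, was at 0.01 ± 0.07 (adjusted p = 0.905). Of the plasma membrane channels, Clcn1, best known from skeletal muscle (chromosome 6, 42286685 to 42315756), had the largest loss of all members. It stood at 2.703, 5.14, 2.58, 2.79 and 2.23 CPM in the inputs, against 0.163, 0, 0.120, 0.171 and 0.0904 CPM in the fractions, the latter from 4, 0, 3, 4 and 2 counts. The log2 fold change was -3.90 ± 0.36 (adjusted p = 2.85e-07), with the input 92 above the other inputs. Clcn1 passed the filter on low values through its inputs, so its rank and call have that limit.

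Clcn2, a channel that opens on hyperpolarisation (chromosome 16, 20702964 to 20717746), was not called, and 2 of its measured complex partners were higher. It had 32.8, 38.03, 32.03, 31.2 and 29.1 CPM in the inputs, against 35.2, 22.9, 28.2, 29.5 and 37.3 CPM in the fractions. The groups overlapped, with a log2 change of -0.07 ± 0.14 (adjusted p = 0.594) that was -0.36 and called lower (0.0201) under total-count scaling. It turned to 0.04 without the fraction 976 and 0.06 without number 92, not called. Hepacam, which encodes the adhesion protein GlialCAM that binds Clcn2, rose from 128 ± 10.3 to 768 ± 78.1 CPM (SD, n = 5; 2.58 ± 0.09, adjusted p = 1.12e-10). Mlc1, a membrane protein of the same complex and one of the astrocyte markers, rose from 213 ± 9.82 to 1897 ± 200.2 CPM (3.16 ± 0.08, adjusted p = 5.08e-11).

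Among the 9 anoctamin genes, Ano6 and Ano10 were higher, 6 were lower and Ano1 was not called. Ano6 encodes a calcium-activated scramblase that exposes phosphatidylserine (chromosome 15, 95790843 to 95974751). Its CPM was 20.5, 22.5, 21.3, 20.2 and 16.4 in the inputs, against 35.9, 43.4, 49.8, 38.7 and 44.04 in the fractions. All fractions exceeded all inputs, and the log2 fold change was 1.07 ± 0.11 (adjusted p = 2.16e-06). Ano10, a family member linked to a cerebellar ataxia (chromosome 9, 122175874 to 122294423) and also added after its values were seen, was at 23.7, 25.4, 21.04, 22.3 and 21.1 CPM in the inputs, against 34.2, 33.5, 34.7, 30.9 and 32.4 CPM in the fractions (0.54 ± 0.06, adjusted p = 8.27e-05).

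**Figure D3:**
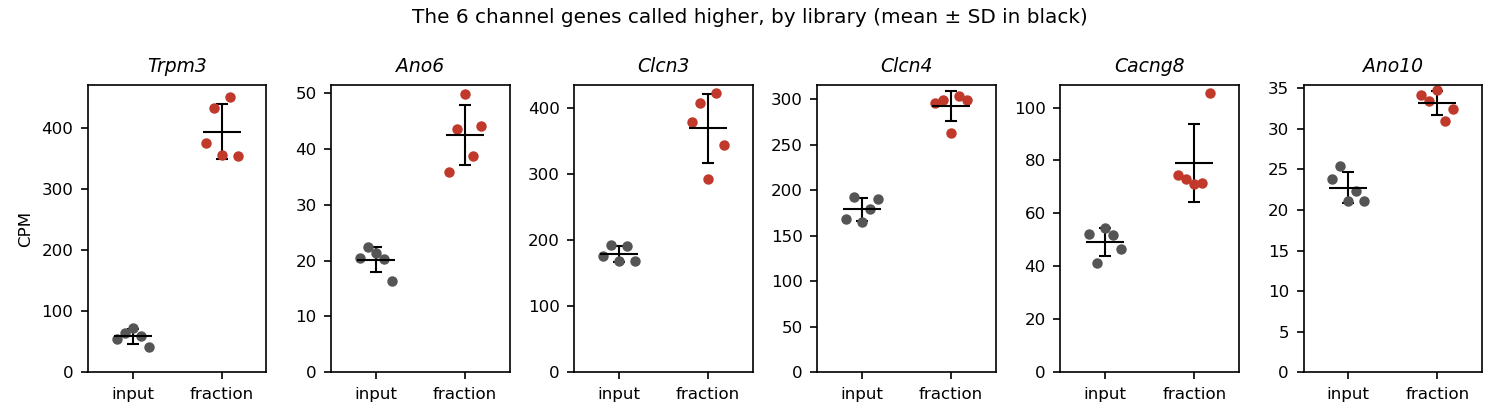
CPM of the 6 members called higher in each of the 5 input and 5 astrocyte fraction libraries, on linear axes from 0; dots are libraries in the order 88, 92, 976, 981 and 982, and black marks the mean and SD. No fraction library falls to the level of an input, and for Trpm3 the lowest fraction is at 354 CPM against a highest input of 73.2 CPM.

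Ano4 (chromosome 10, 88948994 to 89344762) had the largest loss of the family. It stood at 29.6, 33.6, 29.96, 28.98 and 28.7 CPM in the inputs, against 2.57, 3.52, 6.34, 4.36 and 4.39 CPM in the fractions, and the groups lay far apart (-2.78 ± 0.21, adjusted p = 3.88e-08). Ano8, which tethers the endoplasmic reticulum to the plasma membrane (chromosome 8, 71476019 to 71485963), had the highest input level per exon length. Its values were 83.8, 90.8, 87.9, 79.5 and 86.7 CPM and 59.2, 34.3, 67.8, 48.5 and 76.9 CPM, and the shallow fraction 92 was the lowest (-0.57 ± 0.21, adjusted p = 0.00796). Ano5 (-2.49), the dystonia-linked Ano3 (-2.11), the calcium-activated chloride channel gene Ano2 (-2.01) and Ano7 (-1.57) were lower. Ano1, the other calcium-activated chloride channel gene (chromosome 7, 144588549 to 144751974), had 2.89, 3.07, 7.22, 2.41 and 8.57 CPM in the inputs, against 3.43, 3.81, 5.702, 2.74 and 7.01 CPM in the fractions. Numbers 976 and 982 were again the highest, and the groups overlapped. The log2 fold change of Ano1 was -0.08 ± 0.44 (adjusted p = 0.875) and 0.30 (adjusted p = 0.342) without those numbers.

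All 12 genes for voltage-gated sodium channels and the sodium leak channel were lower. The 7 pore genes had a median log2 fold change of -2.44 and spanned -2.87 to -2.08. Scn1a, a main pore gene of fast-spiking neurons (chromosome 2, 66270778 to 66440840), had the highest input level per exon length among them. It had 187, 271, 200.3, 208 and 218 CPM in the inputs, against 25.1, 42.3, 33.2, 26.4 and 35.3 CPM in the fractions, a log2 change of -2.76 ± 0.17 (adjusted p = 3.89e-09). Scn3a, a pore gene prominent in the developing brain (chromosome 2, 65457118 to 65567627), had the largest loss. Its values were 40.2, 46.02, 27.9, 51.8 and 29.03 CPM in the inputs, against 5.997, 7.04, 4.23, 5.602 and 4.295 CPM in the fractions (-2.87 ± 0.23, adjusted p = 5.72e-08). In both genes every fraction was below every input. The axonal pore genes Scn2a (-2.58) and Scn8a (-2.44), and the nociceptor gene Scn9a (-2.08) were lower. Scn7a, whose product senses extracellular sodium and is known from glia of other brain regions, was lower as well (-2.17).

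All 4 sodium channel beta subunits, which adjust gating and adhesion, were lower. Scn4b, which supports resurgent current (chromosome 9, 45138395 to 45154152), had 152, 154, 170.3, 79.9 and 195 CPM and 22.6, 37.9, 26.1, 10.8 and 32.6 CPM. Number 981 was the lowest of both groups, and the log2 fold change was -2.54 ± 0.38 (adjusted p = 5.55e-05). Scn2b was lower at -2.19 and Scn3b at -2.17. Nalcn, the voltage-insensitive sodium leak channel (chromosome 14, 123276634 to 123627144), fell from 122, 125, 90.96, 131 and 95.4 CPM to 25.1, 34.6, 19.7, 34.1 and 26.1 CPM (-2.03 ± 0.19, adjusted p = 1.88e-07). Its 3 measured partner genes were lower too, among them Fam155a (-1.95) and Unc80 (-2.53).

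Of the 11 genes listed as sodium channel partners, 8 were lower, 2 higher and 1, Gpd1l, not called (0.15, adjusted p = 0.125). Among all tested genes 37.5% were lower and 33.1% higher. With the title number as a block Gpd1l was called higher (0.16, adjusted p = 0.0498). Ank3, the ankyrin that gathers sodium channels at the axon initial segment, fell from 288 ± 24.5 to 38.1 ± 5.83 CPM (SD, n = 5; -2.92 ± 0.12, adjusted p = 2.17e-10). The spectrin gene Sptbn4 fell by 2.60 on the log2 scale. Ank2, a related ankyrin gene, rose from 423 ± 55.4 to 1069.7 ± 183 CPM (1.34 ± 0.14, adjusted p = 6.37e-07), and the adhesion gene Nrcam rose by 1.46.

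All 9 pore genes of voltage-gated calcium channels were lower, at log2 fold changes from -3.04 to -0.61 (median -2.45). Among L-type pores, Cacna1c (chromosome 6, 118587240 to 119196418) had 81.2, 159, 87.4, 96.7 and 102 CPM in the inputs, against 11.5, 15.8, 15.1, 9.19 and 18.9 CPM in the fractions. The input 92 stood above the others, and the groups did not overlap (-2.90 ± 0.25, adjusted p = 4.27e-07). Cacna1d, the L-type pore known from dopamine neuron pacemaking (chromosome 14, 30039939 to 30491455), had 26.2, 36.02, 27.5, 27.9 and 26.1 CPM in the inputs, against 15.5, 30.2, 13.2, 17.1 and 20.2 CPM in the fractions. Those groups overlapped through the fraction 92. Its log2 change of -0.61 ± 0.22 (adjusted p = 0.0108) was not called without number 976 (0.0551) or without 976 and 982 (0.108). The muscle pore gene Cacna1s was lower in the fraction (-1.33), a call lost without number 88 (adjusted p = 0.0528).

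All 3 pores of the P/Q, N and R types, known from presynaptic terminals, were lower. Cacna1b, the N-type pore (chromosome 2, 24603887 to 24763152), stood at 106, 129, 83.6, 125 and 84.9 CPM in the inputs, against 11.95, 14.97, 11.7, 11.5 and 14.6 CPM in the fractions. The fractions kept 12.2% of the input level (-3.04 ± 0.16, adjusted p = 1.39e-09). Cacna1a, the P/Q-type pore (chromosome 8, 84388440 to 84640246), had 118, 195, 132, 136 and 137 CPM and 17.1, 37.9, 26.4, 22.7 and 28.9 CPM, with the 92 library highest in both groups (-2.45 ± 0.22, adjusted p = 2.84e-07). The R-type Cacna1e was lower at -2.90. T-type pores open near rest and support burst firing. Of these, Cacna1g (chromosome 11, 94408391 to 94474198) had 184, 362, 197, 231 and 239 CPM in the inputs, against 23.2, 45.8, 29.3, 21.8 and 33.7 CPM in the fractions. The 92 libraries were again highest, and the log2 fold change was -2.99 ± 0.26 (adjusted p = 5.17e-07). Cacna1i was at -2.34 and Cacna1h at -1.15.

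All 8 alpha2delta and beta subunits of calcium channels were lower, with Cacna2d2 near the threshold. The alpha2delta subunits raise channel number at the surface, and Cacna2d1 is the target of gabapentin. Cacna2d1 (chromosome 5, 15934691 to 16374511) had 90.01, 116, 81.01, 107 and 84.6 CPM in the inputs, against 15.5, 24.1, 13.3, 13.2 and 12.3 CPM in the fractions (-2.66 ± 0.20, adjusted p = 2.42e-08). The groups were well apart, as for Cacna2d3 (-2.62). Cacna2d2 (chromosome 9, 107399612 to 107529343) had 158, 128, 116, 144 and 106 CPM and 96.6, 126, 90.04, 112 and 111 CPM, with overlap. The call at -0.29 ± 0.13 (adjusted p = 0.0436) was lost in 13 of 22 alternatives, with adjusted p up to 0.235, the last without number 88. Cacna2d4 (chromosome 6, 119236526 to 119352407) had 8.73, 18.02, 10.9, 10.1 and 16.2 CPM in the inputs, against 6.16, 5.28, 5.86, 8.81 and 8.45 CPM in the fractions (-0.86 ± 0.25, adjusted p = 0.00389). The groups overlapped, and that call was lost without 976 and 982 (adjusted p = 0.0702).

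Of the beta subunits, which bring pores to the membrane, Cacnb2 had the largest loss (chromosome 2, 14603088 to 14987908). It fell from 52.7, 84.1, 56.3, 65.8 and 65.6 CPM to 8.61, 20.5, 11.8, 9.15 and 14.1 CPM (-2.38 ± 0.25, adjusted p = 7.93e-07). Cacnb3 (chromosome 15, 98632220 to 98644530) had 89.04, 86.2, 134, 95.5 and 149 CPM in the inputs, against 17.95, 12.03, 25.8, 18.6 and 34.2 CPM in the fractions, highest in 982 in both groups (-2.33 ± 0.30, adjusted p = 1.18e-05). Cacnb4 (-2.28) was close to these, and Cacnb1 (-1.21) had the smallest loss. Of 12 genes listed as calcium channel partners, 10 were lower and 2 higher, where 37.5% of all tested genes were lower and 33.1% higher. Rimbp2 (-2.22), which links channels to release sites, and the calcium-binding Cabp1 (-2.15) were lower. Cachd1, an alpha2delta-like gene (0.84), and the small GTPase gene Gem (0.86) were higher.

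Most Cacng genes encode TARPs, auxiliary subunits of AMPA-type glutamate receptors, and of the 6 measured members 1 was higher, 4 were lower and 1 was not called. Cacng8 (chromosome 7, 3390683 to 3415648) had 52.2, 41.5, 54.6, 52.02 and 46.5 CPM in the inputs, against 74.5, 73.1, 70.9, 71.5 and 105 CPM in the fractions. The fraction 982 was well above the other fractions, and all of these were above all inputs (0.68 ± 0.13, adjusted p = 2.17e-04). Cacng3 (chromosome 7, 122670492 to 122769393) fell from 28.8, 23.2, 27.02, 27.9 and 30.03 CPM to 6.16, 2.64, 5.702, 5.47 and 5.79 CPM (-2.30 ± 0.23, adjusted p = 3.22e-08). Stargazin, encoded by Cacng2, was lower at -2.16 and Cacng5 at -0.74, a call lost for Cacng5 without number 976 (adjusted p = 0.0820). Cacng4 (chromosome 11, 107732357 to 107794557) was not called, with 107, 96.8, 92.5, 108 and 104 CPM in the inputs, against 89.02, 134, 66.4, 89.2 and 105 CPM in the fractions. The overlap was wide, and the log2 change of -0.08 ± 0.17 (adjusted p = 0.626) was -0.37 and called (0.0274) under total-count scaling and 0.10, not called, without 976 and 982.

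Cacng7 and Cacng8 are neighbours on chromosome 7, 22.5 kilobases apart, and moved in opposite directions. Cacng7 (chromosome 7, 3332955 to 3368221) stood at 210.2, 253, 244, 205 and 249.2 CPM in the inputs, against 128, 98.9, 106, 123 and 142 CPM in the fractions (-0.95 ± 0.11, adjusted p = 2.86e-06). The ratio of Cacng8 to Cacng7, which needs no scaling between libraries, was 0.248, 0.164, 0.223, 0.254 and 0.186 in the inputs and 0.582, 0.739, 0.667, 0.583 and 0.745 in the fractions. All fractions thus had the higher ratio. By the sign of the main fit, Cacng7 and Cacng8 were the only pair of opposite sign among the 15 pairs of members within 1 megabase of each other. Since 62 of the 76 members were lower, a shared sign is the common case. The count also rests on Cacng4, a neighbour of Cacng5, which was not called. Without 976 and 982 Cacng4 was at 0.10 and Cacng5 at -0.71. In 9 of the 15 pairs both genes are sodium channel pores on chromosome 2, so these pairs share members. The 5 pores form 1 cluster, where Scn3a, Scn2a, Scn1a, Scn9a and Scn7a lie in that order with log2 fold changes of -2.87, -2.58, -2.76, -2.08 and -2.17.

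All 4 HCN genes were lower, with log2 fold changes from -2.97 to -2.003. Hcn2 (chromosome 10, 79716634 to 79736108), with an input level of 132 ± 16.5 CPM per kilobase of exon (SD, n = 5), had 406, 461, 434, 339 and 470.04 CPM in the inputs, against 70.9, 95.1, 81.5, 54.2 and 104 CPM in the fractions (-2.38 ± 0.19, adjusted p = 4.95e-08). Hcn4, the slow pacemaker isoform (chromosome 9, 58823412 to 58863175), had 42.7, 79.2, 53.6, 52.6 and 75.3 CPM and 5.304, 11.7, 7.34, 4.02 and 10.9 CPM. The numbers 92 and 982 were the 2 highest in both groups, and the loss was the largest of the family (-2.97 ± 0.34, adjusted p = 3.41e-06). Hcn3 was lower at -2.003, and 17.1% of its exon bases are shared with an opposite-strand gene. Pex5l, which encodes the HCN-trafficking protein TRIP8b, fell from 155 ± 22.6 to 19.9 ± 4.997 CPM (SD, n = 5; -2.997 ± 0.17, adjusted p = 2.61e-09).

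Acid-sensing channel genes differed among themselves. Asic1, the main proton sensor of brain neurons (chromosome 15, 99670368 to 99701130), had 82.5, 64.1, 75.6, 80.8 and 77.3 CPM in the inputs, against 62.99, 66.3, 83.4, 64.8 and 102 CPM in the fractions. The groups overlapped, and its log2 change of 0.0032 ± 0.15 (adjusted p = 0.982) was not called and changed sign in 10 of 22 alternatives, never past the threshold. Asic2 (chromosome 11, 80880169 to 81968457) was lower, with 65.6, 77.1, 66.7, 62.7 and 69.9 CPM in the inputs, against 34.4, 42.3, 31.5, 35.3 and 38.7 CPM in the fractions (-0.92 ± 0.09, adjusted p = 1.05e-06). Asic4 (chromosome 1, 75450436 to 75474343) fell more, from 16.7, 11.8, 24.8, 11.8 and 24.8 CPM to 3.14, 2.93, 4.59, 3.08 and 6.47 CPM (-2.10 ± 0.32, adjusted p = 3.02e-05). For it the numbers 976 and 982 were the highest of both groups, and 18.1% of its exon bases are shared with an opposite-strand gene.

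Levels per kilobase of exon (union of GENCODE M21 exons) ordered the members differently in the 2 groups. In the input, Hcn2 (132 CPM per kilobase), Cacng7 (95.2) and Scn2b (80.3) were among the highest. Among the highest in the fraction were Cacng7 (48.9 ± 7.005, SD, n = 5), Clcn4 (34.1 ± 1.92), Cacng8 (33.7 ± 6.32), Cacng4 (27.04 ± 6.97), Hcn2 (25.4 ± 6.13) and Clcn3 (21.6 ± 3.04). Neighbours in that order from Clcn4 to Clcn3 differed by less than the sum of their SDs. Trpm3 moved from rank 51 of 76 in the input (2.405 CPM per kilobase) to rank 11 in the fraction (16.1). The union of its exons is 24437 bases.

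**Figure D4:**
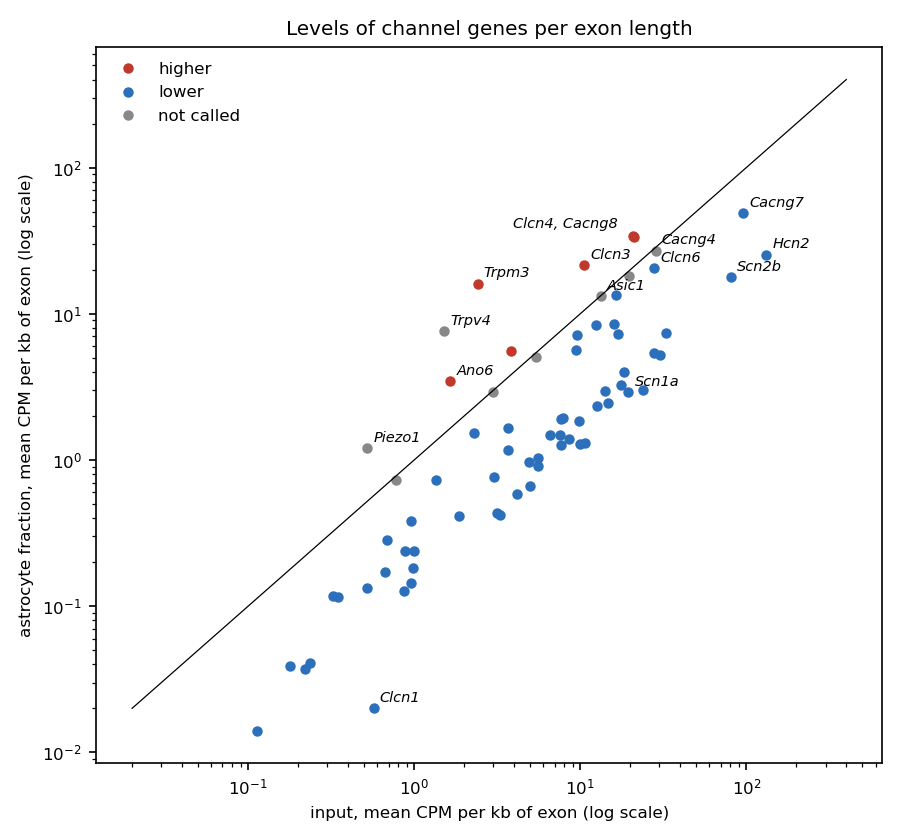
Mean CPM per kilobase of exon in the astrocyte fraction against that in the input for 72 of the 76 genes, both on log axes, with the line of equal level and colours for the call. Hcn2 lies below the line at 132 and 25.4 CPM per kilobase, and Trpm3 lies far above it at 2.405 and 16.1.

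Of 28 measured channel and related genes outside the naming rule, 9 were higher (32.1%), 13 lower (46.4%) and 6 not called. Among all tested genes 33.1% were higher and 37.5% lower, so the share of higher genes was close to that of all genes. A fit that blocks on title number left 3 without a call and gave 11 higher and 14 lower. The block added Clic6 (2.84, adjusted p = 1.15e-10), which is also one of the choroid plexus markers, Scnn1a (0.64, adjusted p = 0.0124) and Stim2 (-0.70, adjusted p = 0.0214). These 3, like Gpd1l, were named after their values were seen. Ttyh1, of the tweety family, rose from 563 ± 47.8 to 4337 ± 618 CPM (SD, n = 5; 2.94 ± 0.11, adjusted p = 2.17e-10). Tpcn1, an endolysosomal cation channel gene, rose from 63.3 ± 2.42 to 425 ± 68.96 CPM (2.75 ± 0.11, adjusted p = 2.83e-10). Tmem63a, a stretch-activated channel gene, fell from 76.1 ± 2.51 to 17.5 ± 1.89 CPM (-2.10 ± 0.07, adjusted p = 2.95e-10), and Lrrc8b, a subunit of volume-regulated channels, fell by 1.18 on the log2 scale.

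The inputs were not alike in these genes. The input 92 was the highest input in 32 of the 76 members (42.1%), against 26.2% of all tested genes. In 17 of the 32 its fraction was also the highest fraction. No share over all tested genes is given for this overlap. The fraction 92, the shallowest library, was the highest fraction in 34.2% of the members and in 27.8% of all tested genes. It was also the lowest fraction in 21 members. The ratio of input 92 to the mean of the other inputs was 2.48 for Trpm6, 2.07 for Ano5, 1.73 for Cacna1c and 1.70 for Cacna1g. The same ratio among the fractions was 3.03, 1.97, 1.16 and 1.70. In the fraction 92 these rest on 16, 8, 54 and 156 counts, so the ratios of Trpm6 and Ano5 are imprecise. Clcn1 and Cacna2d4 had ratios of 1.995 and 1.57 among the inputs. The fraction 92 held 0 counts of Clcn1, which allows up to 0.880 CPM, and its Cacna2d4 ratio was 0.721.

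**Figure D5:**
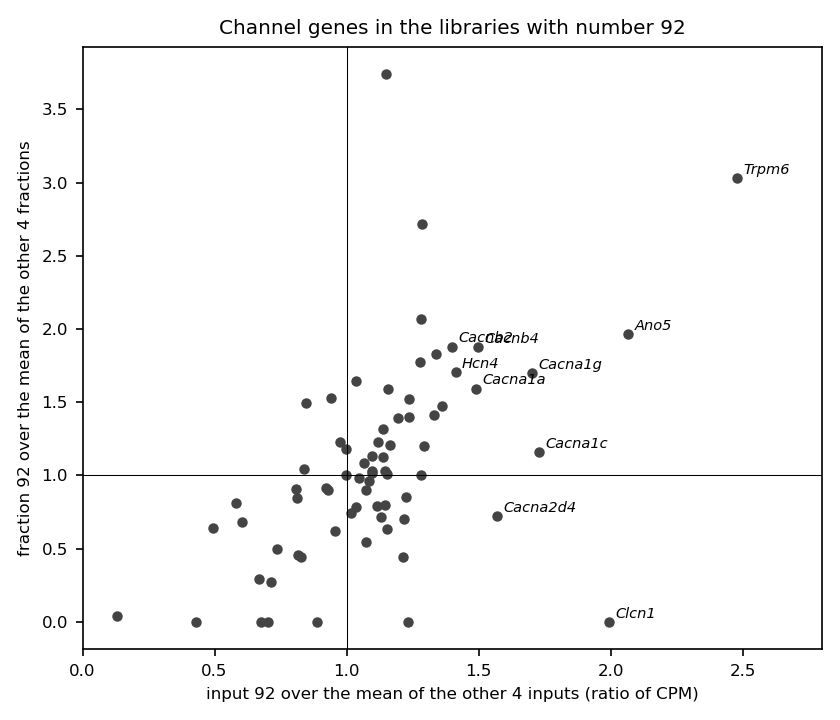
Ratio of the astrocyte fraction 92 to the mean of the other 4 fractions (vertical axis) against the ratio of input 92 to the mean of the other 4 inputs (horizontal axis), 1 dot for each of 72 genes, with lines at a ratio of 1. Trpm6, Ano5 and Cacna1g have ratios above 1 in both libraries of number 92, from 16, 8 and 156 counts in the fraction 92.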

How the data were processed

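Polyadenylated RNA of 10 libraries was measured. The expected counts and the normalized log2 values were both deposited by the authors, per the file headers. The expected counts as deposited are raw estimated counts per gene, and the authors' log2 values have an input median of 0 for each gene. CASAVA 1.8, DESeq and mm10 stand in the submitters' processing notes with no role. Which aligner and counter were used, and whether strand was used, is not given in the sources used here; counts of overlapping genes are therefore uncertain. Expected counts were rounded, and edgeR 4.0.16 (R 4.3.3) was run on them (TMM, filterByExpr with a minimum count of 10, robust quasi-likelihood test, Benjamini-Hochberg adjustment over 17672 genes). Log2 fold changes used a prior count of 2. Standard errors come from log2 CPM of 5 libraries a group. The fit was tested on simulated data. Exon lengths came from GENCODE M21, in which 72 of 76 members have identical coordinates.

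Members and lists were chosen with earlier results of these data known. Values in every library are given for the called member with the largest gain and loss and the one with the highest input level per kilobase in each family, and for members whose direction or call changes without the numbers 976 and 982. The shared title numbers were checked as pairs: after removal of group means, same-numbered libraries had correlations of 0.189 to 0.493. Mean correlations with the other numbers were -0.113 to -0.054. The main fit has no block and so leaves this pairing unused, and only the block alternative takes it up. Values of 4 members are not reported here, though they enter the counts and medians. Alternatives were DESeq2 1.42.0, total-count scaling, 2 filters, a block, limma 3.58.1 on the authors' log2 values, and left-out libraries. Total counts limit precision most in the astrocyte fraction 92, with 3845554 counts. Limits from 3 counts cover counting error only.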

Additional observations from a re-analysis of the deposited data

Results flagged for a closer look

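In 14 of 88 groups of 5 libraries checked, 1 library lay apart from the other 4 by more than 0.71 of the group's range. Chance flags about 1 in 20 groups, but that rate does not apply here, since some of these genes were named because their call or direction depends on the numbers 976 and 982. The input 92 was the high library for Cacna1a (195 CPM), Cacna1c (159), Cacna1d (36.0), Ano4 (33.6) and Clcn1 (5.14). The fraction 92, the shallowest library, was high for Cacna2d1 (24.1 CPM) and low for Cacng3 (2.64). Number 976 was the high library for Trpv4 (23.4 CPM in the input and 129 in the fraction) and Piezo1 (10.4 and 36.2). The fraction 982 was high for Cacng8 (105 CPM), the fraction 981 for Trpc6 (1.24) and the fraction 88 for Trpc2 (0.612).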

How the results depend on the processing

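The counts of members called higher and lower stayed within 1.5 times their main values in all 22 alternatives. With the replicate block, 7 members were higher and 62 lower, and Piezo1 was the only member whose call it changed. The block also changed the calls of 4 partner genes, with 18 higher and 37 lower in place of 15 and 36. The 6 higher members kept their call and direction in all 22, and 61 of the 68 called members did so in every alternative that gave them a value (18 to 22 each), and none of the 68 changed direction. Leaving out libraries lost the calls named beside Cacna1d, Cacna1s, Cacna2d2, Cacna2d4, Cacng5, Trpc2 and Trpm6. The call of Cacna2d2 was also lost with all libraries kept, without the filter on low counts and with limma on the authors' log2 values. Changes of sign were limited to members that were not called. Asic1 was at -0.28 with total-count scaling, -0.09 among genes of at least 5 CPM, -0.02 with the replicate block, -0.01 with DESeq2, -0.05 with limma on the authors' values and -0.12 without 976 and 982, and at -0.12 to 0.10 with 1 library or number left out. Over all alternatives Trpv4 ranged from -0.18 to 4.0. Without 976 and 982, Trpv4 was at -0.18, Ano1 at 0.30 and Cacng4 at 0.10. With 1 library or number left out, Ano1 ranged from -0.28 to 0.23, Clcn2 from -0.19 to 0.06 and Cacng4 from -0.23 to 0.09. The cause was not tested. Total-count scaling moved the median of all genes from -0.06 to -0.34 and the share of higher among called genes from 46.9% to 34.04%. Genes under 5 counts in both groups cannot be assessed.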
